A study of Mus musculus with 797 samples.

Results

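Mat2a encodes the catalytic subunit of the enzyme that makes S-adenosylmethionine in most tissues outside the liver. It is described here with 6 other genes of the methionine cycle and of its control: Mat2b, Mettl16, Ahcy, Ahcyl1, Ahcyl2 and Mtr. These are 7 of the 32285 genes in the table. Mat2a was chosen from a readout, the difference of its mean level between nuclei labelled CMV and nuclei labelled hSyn1. Among genes read in at least 30% of nuclei, only 1 had a larger excess in CMV. That difference is given below as a description. The other 6 were chosen for their roles around Mat2a. The nuclei came from C57Bl/6J mice that had received 1 adeno-associated virus in the capsid PHP.eB, at 5e11 vector genomes per mouse, 3 to 4 weeks earlier. Every group shares the reporter H2B-SYFP2, a yellow fluorescent protein tied to chromatin, and single nuclei were sorted for its fluorescence, so each group holds only nuclei in which the element was active. The groups are 20 vector labels, named for the element that drives the reporter. They are the viral promoter CMV, the human synapsin promoter hSyn1, the Dlx-derived elements hI56i and DLX2.0, and the enhancers AiE0078h, AiE0140h, AiE0387m, AiE0390m, AiE0391h, AiE0401h, AiE0410m, AiE0445h_3xC2, AiE0447h, AiE0450h, AiE0452h, AiE0475m, AiE0600m, AiE0682h, AiE0743m_3xC2 and AiE0779m. The labels name no animal, so the 39 or 40 nuclei of a label were taken as 1 sample.

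The methionine cycle supplies the methyl groups for RNA, DNA, histone and small-molecule methylation. MAT2A joins methionine to ATP to give S-adenosylmethionine, and MAT2B binds MAT2A as a regulatory subunit. Each methylation leaves S-adenosylhomocysteine, which AHCY splits to homocysteine, and MTR returns homocysteine to methionine with a methyl group from folate. AHCYL1 and AHCYL2 resemble AHCY but are known as binding partners of IP3 receptors and ion transporters. METTL16 is an RNA N6-adenosine methyltransferase that binds hairpins in the 3′ untranslated region (UTR) of the Mat2a transcript. It is known to link the amount of S-adenosylmethionine to splicing and stability of that transcript, a fraction of which is kept in the nucleus with an intron.

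The sites that METTL16 is known to bind are shown because they set Mat2a apart from the other members. The consensus TACAGANAA, written as DNA and searched on the transcript's strand of the longest annotated 3′ UTR of each gene, occurred 6 times in the 2178 bases of the Mat2a 3′ UTR (GENCODE M21, mm10). Of 20970 genes with a 3′ UTR, 1179 (5.62%) held at least 1 site, and Mat2a alone held 6. Among 598 genes whose 3′ UTR was within 100 bases of that length, 40 (6.69%) held at least 1. The 3′ UTRs of Mat2b, Mettl16, Ahcy, Ahcyl1, Ahcyl2 and Mtr, which are 710 to 10767 bases long, held 0 sites. The windows below run 5′ to 3′ on the minus strand of chromosome 6, with the consensus in capitals.
Site 1, chr6:72434235-72434263: tggcgtaggtTACAGAGAAgccttcaagc
Site 2, chr6:72433451-72433479: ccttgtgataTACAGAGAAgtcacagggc
Site 3, chr6:72433272-72433300: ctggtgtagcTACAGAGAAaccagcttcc
Site 4, chr6:72433157-72433185: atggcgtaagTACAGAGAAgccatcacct
Site 5, chr6:72433046-72433074: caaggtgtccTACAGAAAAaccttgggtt
Site 6, chr6:72432938-72432966: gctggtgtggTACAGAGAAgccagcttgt
Of these, 5 share the core TACAGAGAA and site 5 has TACAGAAAA. A second annotated transcript with a 3′ UTR of 1494 bases held the same number of sites, and the shortest, with 182 bases, held 0.

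All nuclei are labelled striatum, yet few carried the markers of spiny projection neurons, the main neurons of that tissue. Drd2, Adora2a and Isl1 were read in 5, 0 and 0 of 781 nuclei, and Drd1, Ppp1r1b and Rgs9 in 47, 77 and 89. Slc17a7, the glutamate transporter of cortical neurons, was read in 443. Nuclei with 50565 to 666436 gene reads (median 292895) and a median of 2800 genes were kept. A nucleus was called glutamatergic from Slc17a7 and GABAergic from Gad1 and Gad2, which gave 385 and 310 nuclei, with 50 that had both and 36 that had neither. GABAergic nuclei were split by their strongest marker into Pvalb (137), Sst (104), Adarb2 (52) and other (17). Library names fall into sets A, B and C by their prefix, with 516, 178 and 87 nuclei kept, and the labels do not say what a prefix stands for. Mitochondrial genes took over 1% of the reads in 78 nuclei, all of set B.

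Mat2a (ENSMUSG00000053907, chromosome 6, 72432799 to 72439558, minus strand, mm10) was read in 623 of 781 nuclei (79.8%, exact 95% interval 76.8 to 82.5). Its mean level was 7.33 ± 4.00 (SD over nuclei) as log2(CPM + 1), where CPM is the read count of a gene scaled to the total gene reads of its nucleus. Thinned to 100000 reads per nucleus, the share was 79.0%. Mat2a overlaps the noncoding gene Particl over 508 bases, and without a stated strand setting their reads cannot be told apart. The share with a read was 88.4% in GABAergic nuclei (84.3 to 91.7) and 72.5% in glutamatergic nuclei (67.7 to 76.9), at median depths of 318172 and 279379 reads. After thinning these shares were 88.1% and 71.0%. GABAergic nuclei had a mean level of 8.54 ± 3.37 and glutamatergic nuclei 6.29 ± 4.2. Nuclei with both markers resembled the first (8.53 ± 3.24) and nuclei with neither the second (6.28 ± 4.51). Within a class, nuclei with a read formed a band, apart from those without one. All these shares and levels include the nuclei of CMV and hSyn1, whose difference chose Mat2a.

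**Figure D1:**
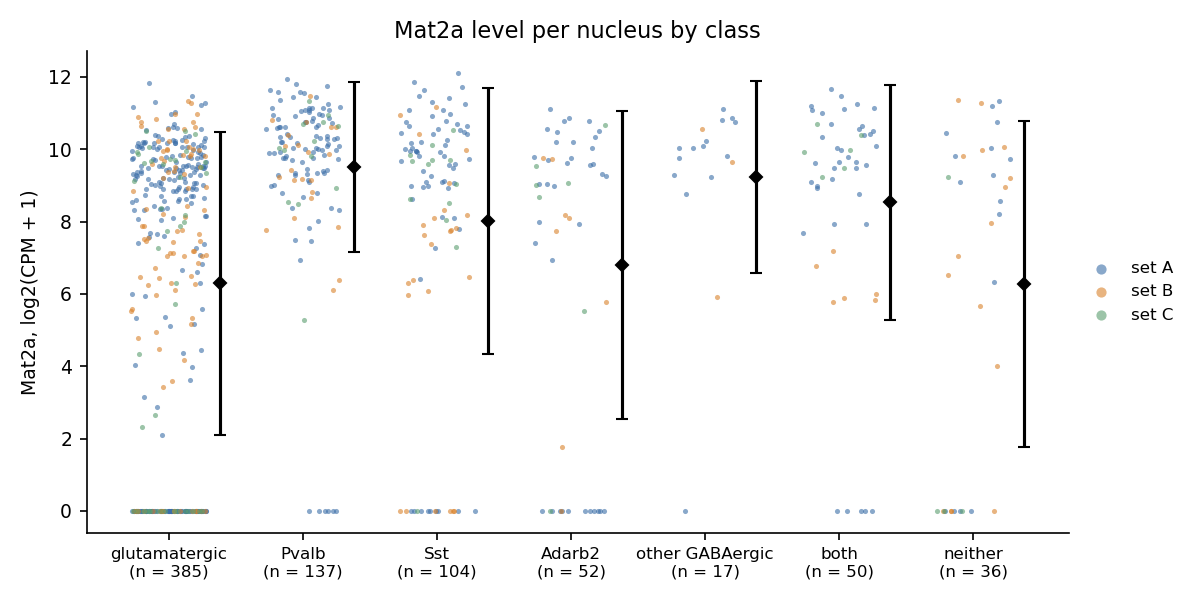
Mat2a level in each of 781 nuclei, as log2(CPM + 1), by class and GABAergic subclass; points are nuclei coloured by library set, and diamonds with bars are the mean ± SD over nuclei. Pvalb nuclei sit highest, at 9.51, and few of them lie at 0, while many glutamatergic nuclei do.

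Reads were then summed by vector label and class, so that both classes of a label could be compared within it. CMV and hSyn1 were left out because their difference had chosen Mat2a, and 10 labels had at least 5 nuclei of both classes. Class and set went together in some of them. AiE0600m had 25 GABAergic nuclei of set A and 8 glutamatergic nuclei of set B. AiE0475m had 17 GABAergic nuclei of set A against 1, 3 and 10 glutamatergic nuclei of sets A, B and C. AiE0447h had 1 and 7 GABAergic nuclei of sets A and B against 27 glutamatergic nuclei of set A. AiE0390m had 22 and 3 against 1 and 11 of sets A and B. There class and set can hardly be told apart. In GABAergic sums Mat2a ran from 290 to 1588 CPM with a median of 917, and in glutamatergic sums from 200 to 755 CPM with a median of 563 (CPM scaled by edgeR's TMM factors). The GABAergic sum was higher in 9 of 10 labels, and the ranges of both classes overlap. AiE0391h was the exception, with 290 CPM in GABAergic and 618 CPM in glutamatergic nuclei. The fitted log2 difference was 1.04 (SE 0.30), a 2.06-fold higher level in GABAergic nuclei, and its adjusted p of 0.0554 (edgeR quasi-likelihood test, Benjamini-Hochberg over 10663 genes) missed the threshold of 0.05. In that comparison 5.28% of genes passed, 2.61% as higher in GABAergic and 2.67% as higher in glutamatergic nuclei, and 0 of the 7 members did. The median log2 difference over all genes tested was 0.29, and 0.05 over the 2180 genes with a mean of at least 100 CPM.

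The adjusted p lay close to the threshold and fell on either side of it with the settings of the fit. DESeq2 gave 1.05 with an adjusted p of 0.0026. A block of label and set, which compares the classes within a set, gave 0.65 with an adjusted p of 0.853. That fit rested on other sums, in 8 blocks with at least 3 nuclei of both classes. AiE0447h, AiE0475m and AiE0600m had no such block. Leaving out each label in turn gave adjusted p from 0.0062, without AiE0391h (difference 1.24), to 0.149, and only the former passed. All 11 GABAergic nuclei of AiE0391h came from set B, and 9 of them had over 1% mitochondrial reads, against 0 of its 12 glutamatergic nuclei of that set. When nuclei over that limit were left out, AiE0391h fell under 5 GABAergic nuclei and out of the fit, and the other 9 labels gave 1.17 with an adjusted p of 0.0181. That value is close to the one without AiE0391h alone. In the classes themselves Slc17a7 and Gad1 differed by -12.29 and 15.89 on the log2 scale, as the rule that made the classes requires.

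**Figure D2:**
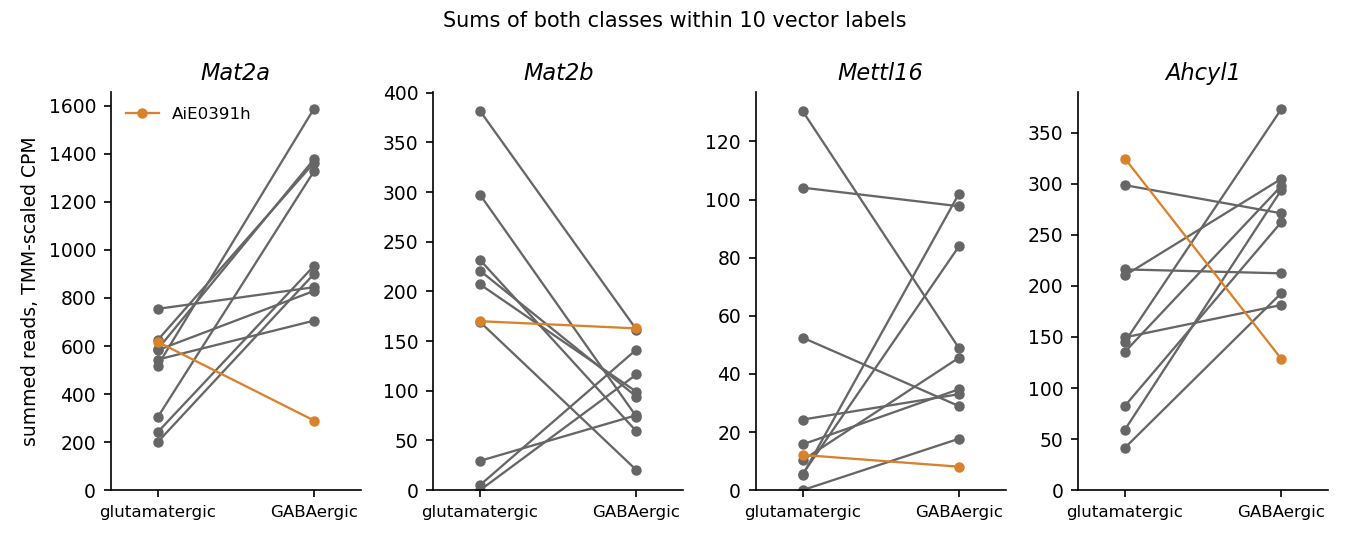
Summed reads of Mat2a, Mat2b, Mettl16 and Ahcyl1 in glutamatergic and GABAergic nuclei, in TMM-scaled CPM on linear axes from 0; each line is 1 of 10 vector labels, with AiE0391h in orange. Mat2a rises to the right in 9 of 10 labels, while the other 3 genes have lines in both directions.

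Among GABAergic nuclei Mat2a was highest in the Pvalb subclass, which in cortex are fast-spiking interneurons. It was read in 131 of 137 Pvalb nuclei (95.6%, 90.7 to 98.4), 88 of 104 Sst nuclei (84.6%, 76.2 to 90.9) and 39 of 52 Adarb2 nuclei (75%, 61.1 to 86.0). The mean levels were 9.51 ± 2.36, 8.01 ± 3.68 and 6.80 ± 4.25 in that order, and 9.23 ± 2.66 in the 17 other GABAergic nuclei. Neighbours in this order differed by less than the SD over nuclei. The order Pvalb, Sst, Adarb2 held in set A (9.54, 8.62 and 6.75) and set C (9.67, 8.52 and 7.5), while in set B Sst and Adarb2 nuclei had 6.15 and 6.38 against 9.29 in Pvalb nuclei. Of those set B nuclei, 15 of 25 Sst, 4 of 8 Adarb2 and 7 of 22 Pvalb nuclei had over 1% mitochondrial reads, and the part of this in the order was not tested. The shares and mean levels above include the nuclei of CMV and hSyn1, whose difference chose Mat2a, so they are descriptions. In set A, CMV gave 12 of 102 Pvalb and 3 of 66 Sst nuclei. In set C, hSyn1 gave 3 of 13 Pvalb and 8 of 13 Sst nuclei.

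Summed by label, Mat2a had a median of 1238 CPM in 12 Pvalb sums (446 to 1937), 840 CPM in 11 Sst sums (177 to 2320) and 542 CPM in 7 Adarb2 sums (291 to 881). Pvalb was above Adarb2 in 6 of 7 labels with both, above Sst in 8 of 11, and Sst above Adarb2 in 4 of 6. DLX2.0 was the label with more in Adarb2, at 881 CPM against 691 CPM. Mat2a was lower in Adarb2 than in Pvalb nuclei by 1.19 on the log2 scale (SE 0.30, adjusted p = 0.0263). Of 11107 genes tested 2.39% passed, 1.85% as higher in Pvalb and 0.54% as higher in Adarb2 nuclei, and Mat2a was the only 1 of the 7 members to do so. The median log2 difference of all those genes was itself -1.24, and -0.54 over genes of at least 100 CPM. Adarb2 sums held 3 to 9 nuclei, fewer than most Pvalb sums. With equal numbers of nuclei drawn from each subclass of a label, Mat2a differed by -1.13 (adjusted p = 0.0736) while the median of all genes was -0.52. Pvalb against Sst gave 0.60 (SE 0.25, adjusted p = 0.342) and Adarb2 against Sst -0.59 (SE 0.30, adjusted p = 0.457), neither past the threshold. Of all genes 1.31% passed between Pvalb and Sst, 0.747% as higher in Pvalb and 0.567% as higher in Sst nuclei. Between Adarb2 and Sst 0.999% passed, 0.252% as higher in Adarb2 and 0.747% as higher in Sst nuclei. Leaving out AiE0390m, AiE0447h, AiE0450h, AiE0600m or hI56i lost this call between Adarb2 and Pvalb, with adjusted p between 0.0530 and 0.0870.

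In summed reads Mat2a was lower in nuclei rich in mitochondrial reads, in a comparison added after those levels had been seen. The higher level of Mat2b there missed the threshold. Mitochondrial transcripts lie in the cytoplasm, so their share of reads is a usual measure of cytoplasm carried along with a nucleus. In set B, 60 glutamatergic and GABAergic nuclei from 12 labels were over 1% (median 1.90%) and 96 were not. The 60 include 5 GABAergic and 3 glutamatergic nuclei of hSyn1, with 97.1 and 178 CPM of Mat2a. That label took part in choosing Mat2a, so the Mat2a levels of this paragraph are descriptions. Mat2b was read in 60 of the 60 (100%, 94.0 to 100) and in 27 of the 96 (28.1%, 19.4 to 38.2). After thinning the shares were 98.3% and 28.1%. Shares with a read were higher over the limit for the other members too: 90.0% against 54.2% for Ahcyl1, 78.3% against 38.5% for Ahcyl2, 51.7% against 24% for Mettl16, 36.7% against 7.29% for Ahcy and 20% against 17.7% for Mtr. After thinning the shares were, in that order, 90% and 52.1%, 73.3% and 38.5%, 45% and 22.9%, 23.3% and 6.25%, and 18.3% and 15.6%. The summed levels of these members mostly did not go with the shares. Ahcyl1 had 146 CPM over the limit and 223 CPM under it, Ahcyl2 64.4 and 72.5, Mettl16 30.9 and 31.7, and Mtr 22.3 and 28.8. Ahcy alone of these was higher over the limit, with 8.70 and 6.50 CPM. Summed over nuclei, Mat2b had 304 CPM over the limit and 118 CPM under it. Mat2a went the other way, with 170 CPM and 760 CPM, while its share with a read was 91.7% and 79.2% (88.3% and 78.1% after thinning). As mean log2(CPM + 1), glutamatergic nuclei had 6.25 ± 2.06 of Mat2a over the limit and 6.96 ± 4.29 under it. GABAergic nuclei had 6.39 ± 2.77 and 8.41 ± 3.46. In both classes these means differed by less than the SD over nuclei. Depth and gene number differed too, with medians of 415536 and 232842 reads and 6144 and 2809 genes.

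The same contrast was drawn within vector label and class, against all other nuclei of the label. With hSyn1 left out, 6 such pairs had at least 3 nuclei on both sides, 5 glutamatergic and 1 GABAergic. In AiE0743m_3xC2 Mat2a fell to 29 CPM from 719, in AiE0600m to 90.8 from 1005, and in AiE0475m to 128 from 402. AiE0078h had 180 CPM against 531, AiE0390m 216 against 838, and the GABAergic nuclei of AiE0452h 213 against 1348. Mat2a was thus lower over the limit in 6 of 6 pairs, and the ranges of both sides do not overlap. The log2 difference was -2.61 (SE 0.45, adjusted p = 0.0061), and 3.43% of 9349 genes passed, 0.995% as lower and 2.44% as higher. Leaving out each pair in turn kept the call, with differences from -2.90 to -2.25. The median of all genes was 0.23.

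Mat2b was higher over the limit in the same 6 of 6 pairs. Its level went from 338 CPM to 499 in AiE0743m_3xC2, the smallest change in proportion together with AiE0475m (from 196 to 301), and from 7.95 to 216 in AiE0452h. The log2 difference was 2.09 (SE 0.61), and its adjusted p of 0.0840 missed the threshold. It passed with hSyn1 included, where 8 pairs gave 1.97 with an adjusted p of 0.0245. Mettl16, Ahcyl1, Ahcyl2 and Mtr had adjusted p from 0.748 to 0.844, and Ahcy was too low to be tested. All nuclei over the limit are of set B. In AiE0600m the 5 other nuclei were of set B too, so its Mat2a values of 90.8 and 1005 CPM compare nuclei within that set, and in AiE0390m 8 of the 9 other nuclei were. In the other 4 pairs the nuclei under the limit came from sets A and C, and there set and mitochondrial share cannot be told apart. The part of depth in these differences was not tested.

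**Figure D3:**
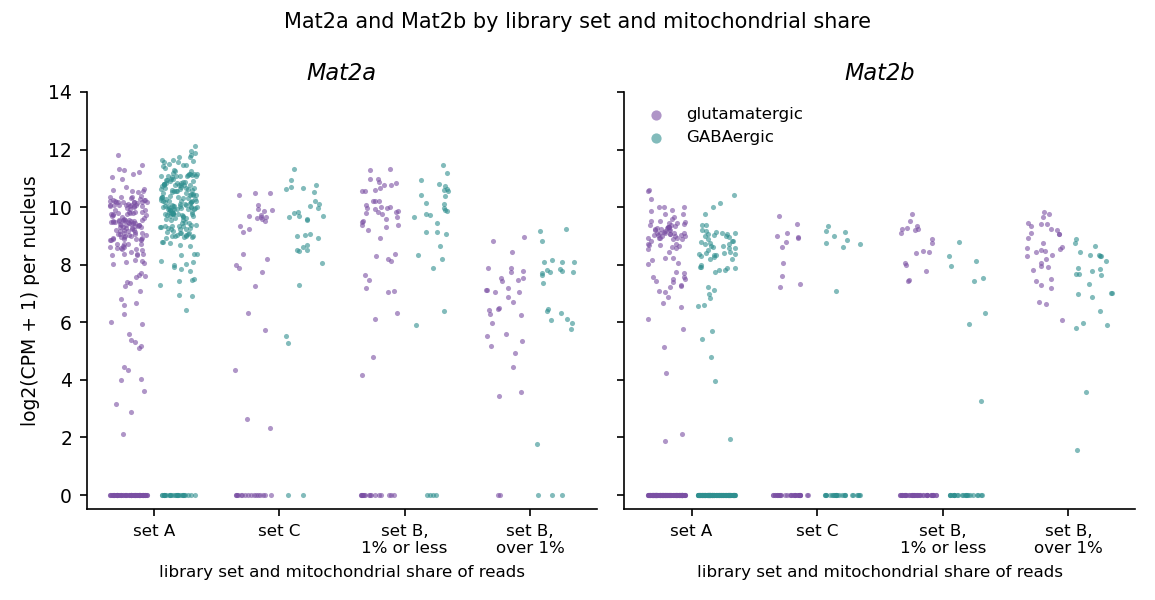
Level per nucleus of Mat2a (left) and Mat2b (right), as log2(CPM + 1), in glutamatergic and GABAergic nuclei of set A, set C, and set B split at 1% mitochondrial reads. Over 1%, Mat2a lies in a lower band than elsewhere, and Mat2b has a read in all 60 nuclei.

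The class difference of Mat2a was next taken within library sets. In set A, 5 labels had at least 3 nuclei of both classes, and the GABAergic level was higher in all 5. AiE0452h had 1275 CPM against 191, AiE0410m 875 against 208, AiE0682h 1606 against 316, AiE0743m_3xC2 1576 against 666 and DLX2.0 809 against 627. In set B, 3 labels qualified and the glutamatergic level was higher in all 3: AiE0391h had 275 CPM in GABAergic and 821 in glutamatergic nuclei, AiE0390m 266 and 686, and AiE0682h 790 and 1157. The log2 difference of the classes was 1.86 in set A and -1.20 in set B. A fit of both gave a set B minus set A difference of -3.05 with an adjusted p of 0.0857, and 0.0396% of 12623 genes passed there. The set B sums were small, with 3 GABAergic nuclei for AiE0390m, 11 for AiE0391h and 5 for AiE0682h. Over all labels, set B nuclei with 1% mitochondrial reads or less had 881 CPM of Mat2a in 32 GABAergic and 687 CPM in 64 glutamatergic nuclei, and nuclei over 1% had 195 CPM in 26 and 144 CPM in 34. On either side of the limit the GABAergic level was thus the higher, as a sum over labels without a test. The sums over 1% include 5 GABAergic and 3 glutamatergic nuclei of hSyn1. Of the 3 set B labels, AiE0391h had 9 of 11 GABAergic and 0 of 12 glutamatergic nuclei over 1%. AiE0390m had 1 of 3 and 3 of 11. AiE0682h had 0 of 5 and 0 of 3, and its glutamatergic level was the higher too. The part of mitochondrial share in the difference between sets was not tested.

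**Figure D4:**
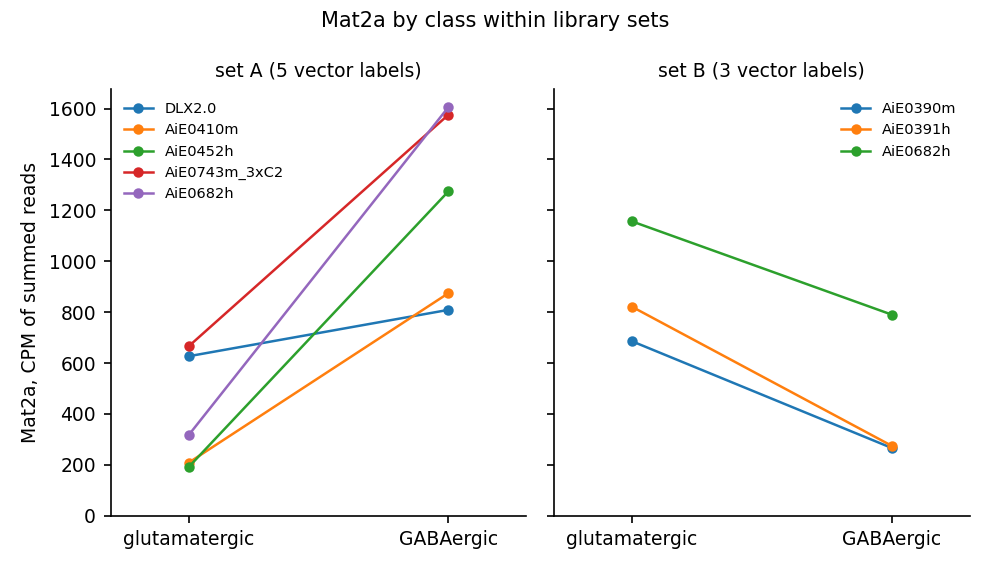
CPM of Mat2a in summed reads of glutamatergic and GABAergic nuclei within set A (5 vector labels) and set B (3 vector labels), on a linear axis from 0; each line is 1 label with at least 3 nuclei of both classes in that set. Lines rise in set A and fall in set B.

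Glutamatergic nuclei of set B were also compared with those of set A in the 7 labels that had both. Mat2a ran from 28.4 to 1015 CPM in set B (median 513) and from 258 to 711 CPM in set A (median 568), with set B higher in 3 of 7 labels. The log2 difference was -0.53 (SE 0.69, adjusted p = 1), and it was 0.39 without nuclei over 1% mitochondrial reads, where 5 of the 7 labels remained in the fit. In that comparison edgeR called 0% of 9670 genes, 315 had an unadjusted p under 0.05, and DESeq2 called 174. Mat2b differed by 0.28 (SE 0.46, adjusted p = 1).

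The regulatory subunit gene Mat2b (ENSMUSG00000042032, chromosome 11, 40679314 to 40695203, minus strand) was read in 285 of 781 nuclei (36.5%, 33.1 to 40). Its GABAergic sums ran from 20.2 to 163 CPM (median 96.6) and its glutamatergic sums from 0 to 382 CPM (median 189). The glutamatergic sum was higher in 7 of 10 labels, but the classes overlap and the log2 difference of -0.37 (SE 0.87) had an adjusted p of 0.910. Its sign turned, to GABAergic higher, with set in the block (1.94), in set A alone (2.96), in set B alone (0.93) and without nuclei over 1% mitochondrial reads (0.51). By set, Mat2b was read in 52.2% of set B nuclei, 32.6% in set A and 27.6% in set C.

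Mettl16, the methyltransferase gene (ENSMUSG00000010554, chromosome 11, 74770830 to 74828525, plus strand), was read in 202 nuclei (25.9%, 22.8 to 29.1). The share was 30.3% in GABAergic and 19.2% in glutamatergic nuclei (28.1% and 17.8% after thinning). Its sums ran from 8.07 to 102 CPM in GABAergic nuclei (median 40.1) and from 0 to 130 CPM in glutamatergic nuclei (median 13.9). GABAergic was the higher in 6 of 10 labels, and the log2 difference was 1.28 (SE 0.97, adjusted p = 0.620).

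Ahcy, whose product clears S-adenosylhomocysteine (ENSMUSG00000027597, chromosome 2, 155059310 to 155074497, minus strand), was the least often read, in 65 nuclei (8.32%, 6.48 to 10.5). Its sums reached at most 15.1 CPM in GABAergic and 37 CPM in glutamatergic nuclei, with 5 of 10 labels in each direction. It overlaps Gm45609 over 317 bases. Mtr, the methionine synthase gene (ENSMUSG00000021311, chromosome 13, 12182712 to 12258113, minus strand), was read in 83 nuclei (10.6%, 8.55 to 13). Its median was 24.9 CPM in Pvalb sums (0 to 160) and 0 CPM in Sst sums (0 to 5.27), with Pvalb higher in 8 of 11 labels. The fitted log2 difference of 7.6 (SE 2.15, adjusted p = 0.0797) missed the threshold and, with most Sst sums at 0, gives no bound on the fold. It passed with DESeq2 (adjusted p = 0.0100), without AiE0682h (adjusted p = 0.0331) and when nuclei had exactly 1 subclass marker (adjusted p = 0.0161).

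Of the AHCY-like genes, Ahcyl1 (ENSMUSG00000027893, chromosome 3, 107663118 to 107696560, minus strand) was read in 441 nuclei (56.5%, 52.9 to 60). It ran from 128 to 373 CPM in GABAergic sums (median 267) and from 41.6 to 325 CPM in glutamatergic sums (median 148), higher in GABAergic nuclei in 7 of 10 labels. The log2 difference was 0.81 (SE 0.36, adjusted p = 0.289). In Adarb2 sums its median was 323 CPM (286 to 532), against 264 CPM in Pvalb sums, so it did not share the order of Mat2a, and no subclass difference passed. Ahcyl2 (ENSMUSG00000029772, chromosome 6, 29768011 to 29912310, plus strand), read in 272 nuclei (34.8%, 31.5 to 38.3), had medians of 58.6 CPM in GABAergic and 61.6 CPM in glutamatergic sums. Its log2 difference was 0.12 (SE 0.63, adjusted p = 0.964).

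Genes around the cycle were read through 8 lists of 96 genes in all, of which 74 could be tested between GABAergic and glutamatergic nuclei. A single gene passed, with higher levels in GABAergic nuclei, against 2.61% of all genes. It was Aldh1l2, the mitochondrial formyltetrahydrofolate dehydrogenase of the folate list (1 of 9 tested). Aldh1l2 was read in 11.3% of GABAergic and 0.260% of glutamatergic nuclei (log2 difference 8.34, SE 1.61, adjusted p = 0.0036), and with reads so rare in glutamatergic nuclei the fitted value is no bound. In the same list Mthfd2 was read in 24.8% and 11.4% of the 2 classes, with an adjusted p of 0.146. None of 8 genes for methionine supply passed: the amino acid transporter subunits Slc3a2 and Slc7a5 differed by 0.74 and 4.88 (adjusted p = 0.138 and 0.228). Of 17 m6A writers, erasers and readers 0 passed, with Mettl3 at 1.57 (adjusted p = 0.608) and Ythdc1 at 0.34 (adjusted p = 0.609). Among 8 DNA methylation genes, 16 other methyltransferases and 9 polyamine and salvage genes 0 passed, with Dnmt3a at -0.65 (adjusted p = 0.57), Prmt8 at -2.40 (adjusted p = 0.128) and Apip at 0.76 (adjusted p = 0.499). Cdo1 led the 4 transsulfuration genes at 5.73 (adjusted p = 0.158). Among 3 IP3 receptor and AHCYL1 partner genes, Itpr2 had 6.95 (adjusted p = 0.0520). The median log2 difference of the 74 genes was 0.40, beside 0.29 for all genes tested. Between Adarb2 and Pvalb nuclei 1 of 78 listed genes passed, against 2.39% of all genes. It was Mri1 of methionine salvage, named after its values were seen, which was lower in Adarb2 than in Pvalb nuclei (-9.99, SE 2.41, adjusted p = 0.0266).

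Across the 20 vector labels the mean level of Mat2a ran from 9.27 ± 2.84 in CMV to 5.02 ± 4.96 in AiE0387m, where 52.6% of nuclei had a read. After CMV came AiE0390m (9.12 ± 2.81), AiE0682h (8.93 ± 2.92) and hI56i (8.59 ± 3.16). AiE0401h (6.35 ± 4.36) and AiE0779m (6.37 ± 3.94) stood just above the lowest. No 2 neighbours in the order differed by more than 1.33, less than any SD over nuclei. The largest gap lay above AiE0387m. Labels with more GABAergic nuclei had more Mat2a: over the 18 labels without CMV and hSyn1, the GABAergic share and the mean level had Pearson's r = 0.72 (permutation p = 0.00068, adjusted 0.0020) and Spearman's rho = 0.68 (permutation p = 0.0025, adjusted 0.0074), over 3 relations computed. Without AiE0401h and AiE0078h, farthest from the median share, r was 0.70. Within set A r was 0.65 over 18 labels (permutation p = 0.0033) and rho 0.51 (permutation p = 0.0314), and within set B r was 0.55 over 14 labels (permutation p = 0.0369) and rho 0.60 (permutation p = 0.0252), with r of 0.65 and 0.42 without the 2 farthest labels of each. Share and mean came from the same nuclei, so a class difference by itself gives such a relation. These p-values are therefore no separate support for the class difference. AiE0450h stood apart, with 90.9% GABAergic nuclei and a mean of 6.43 ± 4.84. Its 30 GABAergic nuclei had reads in 70.0%, against 100% of 25 for AiE0390m.

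**Figure D5:**
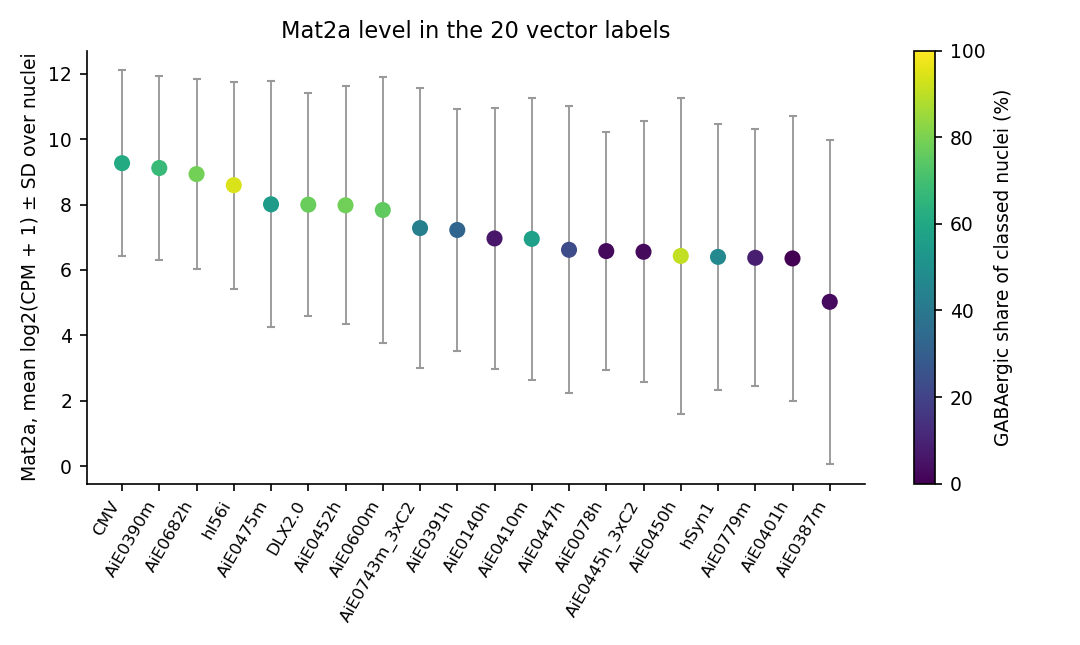
Mean Mat2a level ± SD over nuclei, as log2(CPM + 1), in the 20 vector labels from highest to lowest, coloured by the GABAergic share of their classed nuclei. Means fall from 9.27 to 5.02 and bars of all labels overlap.

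The difference that chose Mat2a is given last and without a test. The mean was 9.27 ± 2.84 in 40 nuclei labelled CMV and 6.40 ± 4.08 in 38 labelled hSyn1, a difference of 2.87. In the order of CMV minus hSyn1, where genes higher in hSyn1 come last, Mat2a ranked second of 3934 genes, between Stk38 at 2.98 and Asah1 at 2.83. Of these genes 29.6% differed by over 1 in either direction, 7.96% with CMV higher. In GABAergic nuclei the levels were 10.27 ± 0.88 (20 nuclei of CMV) and 8.01 ± 2.63 (17 of hSyn1). In glutamatergic nuclei they were 7.19 ± 4.19 (13) and 4.55 ± 4.50 (19). All 20 GABAergic nuclei of CMV had a read. The subclasses differed, with 12 Pvalb, 3 Sst and 5 Adarb2 nuclei in CMV and 4, 12 and 1 in hSyn1. The 2 labels also drew on different sets: of the GABAergic nuclei, CMV had 19 from set A and 1 from set C, and hSyn1 5 from set B and 12 from set C. Where both had more than 1 nucleus of a class in the same set, the glutamatergic nuclei of set C, the means were 7.0 ± 4.32 (12 nuclei) and 4.60 ± 5.07 (6 nuclei). Over all nuclei of set C, CMV had 7.72 ± 3.93 (16 nuclei) and hSyn1 7.60 ± 4.00 (20 nuclei). There 1 nucleus of CMV and 12 of hSyn1 were GABAergic. In set A the means were 10.30 ± 0.89 (24 nuclei) and 3.67 ± 4.75 (10 nuclei). There 19 nuclei of CMV were GABAergic and the 10 of hSyn1 glutamatergic. The 5 GABAergic nuclei of hSyn1 from set B all had over 1% mitochondrial reads, and their Mat2a was 97.1 CPM. On the same scale the other members differed by -0.23 for Mat2b, 0.02 for Mettl16, -0.70 for Ahcy, 0.29 for Ahcyl1, -1.35 for Ahcyl2 and 0.36 for Mtr.

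Over the 20 sums of both classes, the genes whose level followed Mat2a most closely were Osbpl9 (Pearson's r = 0.85), 2900072N19Rik (0.85), Runx2 (0.84), 3110021N24Rik (0.83) and Me3 (0.78). These points share labels, depth and class, and the coefficients are descriptions. Among the members Mettl16 had 0.35, Ahcyl1 0.24, Mat2b and Ahcy 0.00, Ahcyl2 -0.13 and Mtr -0.36. None of the 5 closest genes passed the test between classes, with log2 differences from 0.89 for Me3 to 4.60 for Runx2 and adjusted p from 0.0929 for Osbpl9 to 0.483 for 2900072N19Rik.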

How the data were processed

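Nuclei were sorted one by one and their full-length cDNA was sequenced (SMART-Seq v4, per the labels' protocols). The authors deposited raw counts of reads for each gene in each nucleus. No molecular identifiers were used, so PCR copies count as reads of their own. STAR 2.7.2a and mm10 are named in the submitters' processing notes. How reads were assigned to genes, including strand and introns, is not given in the sources used here. Reads of introns, if counted, would raise long genes, and CPM was not divided by length, so members were not ranked against each other by level. Shares with a read, by which Ahcy was the least often read, carry the same limit. The table's 2501 columns include 797 whose library name matches a sample; 1704 columns stayed unused. Rows without a symbol held 0.0931% of reads. Gene positions and 3′ UTRs are from GENCODE M21.

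Nuclei with at least 50000 reads and 1000 genes were kept, and 16 of 797 were left out. A class marker counted from 10 CPM. Counts were summed per vector label and class (at least 5 nuclei) or subclass or set (at least 3). Sums were tested with edgeR 4.0.16 (TMM, filterByExpr, quasi-likelihood, label as block) in R 4.3.3, with Benjamini-Hochberg adjustment over all genes tested and a threshold of 0.05. The labels name no animals, so p-values of these fits measure only how the difference within a vector label varied over labels. DESeq2 1.42.0 and limma 3.58.1 were alternatives. The main fits by class, subclass (Pvalb against Sst only), set and mitochondrial share were run on simulated data. The fit of class by set was not. Shares carry exact Clopper-Pearson 95% intervals, which cover counting error only. Levels per nucleus used a pseudocount of 1. No doublets were removed, and the 50 nuclei with both markers stayed out of tests. Tables used Python 3.11.15, numpy 2.4.6, pandas 2.3.3 and scipy 1.17.1.

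The 7 members and the gene lists were chosen with earlier results of these data known. Named were all members, up to 4 genes of each list with the smallest p between classes, the class markers and the 5 genes most like Mat2a. The split at 1% mitochondrial reads, the fits within sets and those with equal numbers of nuclei were added after the data had been seen.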

Additional observations from a re-analysis of the deposited data

Results flagged for a closer look

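Of 33 groups of 4 to 10 sums tested for a single sum far from the others, 5 had one. Chance flags about 1 in 20 groups of continuous values, a rate that does not hold where the other sums are all 0, as for Ahcy and Mtr in Adarb2 nuclei, since any read is then flagged. In Adarb2 nuclei hI56i stood apart with 23.6 CPM of Ahcy (the other 6 labels had 0) and with 306 CPM of Ahcyl2 (next 67.8). AiE0452h had 75.2 CPM of Mtr in Adarb2 nuclei (the other 6 had 0). In glutamatergic nuclei AiE0682h had 182 CPM of Mettl16 in set A (next 65.5), and AiE0401h 133 CPM of Mtr in set B (next 18.9).

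Among labels with at least 3 nuclei of both classes in a set, the class difference of Mat2a pointed one way in 5 of 5 labels of set A and the other way in 3 of 3 labels of set B. The log2 difference of GABAergic minus glutamatergic nuclei in set B minus that in set A was -3.05, with an unadjusted p of 4.75e-05 and an adjusted p of 0.0857 in edgeR over 5 and 3 labels. It did not pass the threshold.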

How the results depend on the processing

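No paired analysis was possible because, for pairing by replicate number, the labels' numbers only number the nuclei of a vector label. The tests instead compare classes within vector labels, with the label as block.

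GABAergic minus glutamatergic nuclei, where edgeR called 563 genes: DESeq2 called 2064, no filter on low counts 862, limma on mean log2(CPM+1) 1191 and on log2(CPM+10) 1235, at least 10 nuclei per sum 155, set as part of the block 141, set A only 51, set B only 39 and equal numbers of nuclei 358, and leaving out each label gave 436 to 567. The Mat2a difference then passed with DESeq2 (1.05), no filter (1.06), limma (2.21 and 1.71), no vector block (1.03), a class threshold of 50 CPM (1.13) and without nuclei over 1% mitochondrial (1.17, on 9 labels, AiE0391h having dropped out). The value with CMV and hSyn1 included (1.04) is no support, since those labels chose Mat2a. It missed the threshold with set in the block (0.65, adjusted p 0.853), at least 10 nuclei per sum (1.22, adjusted p 0.403), set A only (1.84), equal numbers of nuclei (1.06), thinning (adjusted p 0.0632) and no nucleus filter (1.03). It reversed in set B alone (-1.29), and leaving out each label gave 0.91 to 1.24. Mat2b, never called, reversed with set in the block (1.94), in set A (2.96), in set B (0.93) and without nuclei over 1% mitochondrial (0.51). Mettl16 (-0.41) and Ahcyl2 (-0.37) reversed in set B and Mtr in set A (0.047). Ahcy reversed under limma (-0.00096 and -0.012) and with no block (-0.57), and when labels were left out ran from -0.21 to 1.18, and Ahcyl2 from -0.20 to 0.39.

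Subclasses, by DESeq2, limma, at least 5 nuclei per sum and equal numbers of nuclei: Pvalb against Sst (main count 146) called 1063, 566, 52 and 68, Adarb2 against Pvalb (266) 2204, 936, 74 and 121, and Adarb2 against Sst (111) 1358, 366, 49 and 51. Without a filter the last pair called 405 and 205. Leaving out each label gave 92 to 145, 145 to 274 and 64 to 128. Mat2a in Adarb2 against Pvalb missed the threshold with at least 5 nuclei per sum (-0.94, adjusted p 0.329) and equal numbers (-1.13), and when labels were left out ran from -1.42 to -1.10.

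Set B against set A called 174 genes with DESeq2 and 16 without a filter, against 0. Without nuclei over 1% mitochondrial, which also took 2 of the 7 labels out of the fit, Mat2a (0.39) and Mat2b (-0.079) reversed. By mitochondrial share, edgeR called 321 genes, DESeq2 2006, no filter 599, hSyn1 included 650, and leaving out each pair 138 to 258. Mat2a stayed called with DESeq2, without a filter and with each pair left out; its value with hSyn1 (-2.44) is no support for the same reason. Mat2b passed with DESeq2 (2.0), no filter (2.06) and hSyn1 included (1.97). The cause was not tested. Sums of few nuclei limit all tests, so a gene that missed the threshold is not shown to be equal between groups, and the differences of Ahcy and Mtr, read in 65 and 83 nuclei, carried SE of 1.84 and 1.62 between classes.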
